A study of Homo sapiens and Mus musculus with 24 samples.

Results

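The sodium pump, or Na,K-ATPase, is described here through 5 of its genes in LNCaP, a human prostate cancer cell line of epithelial origin that responds to androgen. They are the beta subunit genes ATP1B1, ATP1B2 and ATP1B3 and the FXYD regulator genes FXYD3 and FXYD5, of 44564 gene names kept from the expression table. They were chosen by name with their levels in these same 12 libraries already known, ATP1B1 being a gene that rose strongly, so their values are given as a description and no p-value is printed for them. LNCaP cells, with a genotype labelled WT, were collected at day 7 in 6 groups of 2 libraries. They were cocultured with fibroblasts called CRPCCAFs and given 1 µM enzalutamide, an antagonist of the androgen receptor, or the vehicle DMSO. They were cocultured with fibroblasts called CCAFs and given 1 µM enzalutamide or DMSO. They were also grown without fibroblasts and given 1 µM enzalutamide or DMSO. LNCaP medium held 10% FBS. The labels spell out neither fibroblast name, and they do not say which mice the cocultured fibroblasts came from. They state 2 biological replicates per condition, without saying what separated them, so p-values measure the spread between these libraries.

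The sodium pump moves sodium out of the cell and potassium in, at the cost of ATP, and the gradient it builds drives the uptake of nutrients, phosphate and bicarbonate. Its alpha subunit binds the ions and splits ATP. Its beta subunit, a glycoprotein, is needed for the alpha subunit to fold and to reach the plasma membrane, and in epithelia the product of ATP1B1 also holds neighbouring cells together. FXYD proteins are small membrane proteins that sit beside the pump and tune its affinity for ions.

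The libraries held 17850431 to 22187880 reads, recovered from the smallest steps of the RPKM values. All 9 luminal prostate markers, among them KLK3, KRT8 and KRT18, were at 1 RPKM or more in each of the 12 libraries. KLK3, the androgen-activated gene of prostate-specific antigen, averaged 179 ± 1.29 RPKM with enzalutamide and 1988 ± 60.9 RPKM with DMSO beside CRPCCAFs. Beside CCAFs it averaged 449 ± 6.84 RPKM with enzalutamide and 1855 ± 8.85 RPKM with DMSO. Without fibroblasts it averaged 58.5 ± 4.18 RPKM with enzalutamide and 1194 ± 69.4 RPKM with DMSO. It was thus 11.1-fold lower with the drug beside CRPCCAFs, 4.13-fold lower beside CCAFs and 20.4-fold lower in cells alone. Values after ± are SDs over the 2 libraries of each group. The 20 fibroblast markers summed to 27.5 and 28.1 RPKM beside CRPCCAFs with enzalutamide, and to 18.4 and 23.0 RPKM in cells alone with DMSO. The 6 that define fibroblasts best (DCN, LUM, COL1A2, COL3A1, PDGFRA and PDGFRB) summed to 0.444 to 1.73 RPKM, with 0 to 2 of them at 0 in a library, and the highest sum was in a library of cells alone. In each CRPCCAF library with enzalutamide 6 of the 20 markers were at 1 RPKM or more, against 3 to 5 in each other library. Choosing genes to test by their level may thus have built in part of a rise in that group. Of the 20 markers, 6 were high enough to be tested. 3 rose and 1 fell beside CRPCCAFs with enzalutamide, and 2 rose and 0 fell beside CRPCCAFs with DMSO, each against cells alone. Beside CCAFs 0 rose and 1 fell with enzalutamide, and 1 rose and 0 fell with DMSO. With the drug, 3 rose and 1 fell beside CRPCCAFs, 4 rose and 1 fell beside CCAFs and 3 rose and 2 fell in cells alone. Of all 16042 genes tested, 36.1% and 30.6% were called for CRPCCAFs with enzalutamide and with DMSO, 19.4% and 9.46% for CCAFs with enzalutamide and with DMSO, and 48.3% to 55.4% for the drug. The markers' part in the values below was not tested. None of the sources says how reads of human and of mouse cells were told apart. In such bulk libraries, a shift in the cells present and a change in RNA per cell cannot be told apart either.

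ATP1B1 and ATP1B3 are the beta subunit genes that LNCaP cells expressed, and their transcripts behaved differently across the 6 groups. Their promoters, the 250 bases before the RefSeq start in GRCh38.p14, are shown for that contrast. Both lie on the plus strand, that of ATP1B1 at chr1:169106440-169106689 and that of ATP1B3 at chr3:141876393-141876642. Capitals mark the GC box GGGCGG on either strand.
ATP1B1: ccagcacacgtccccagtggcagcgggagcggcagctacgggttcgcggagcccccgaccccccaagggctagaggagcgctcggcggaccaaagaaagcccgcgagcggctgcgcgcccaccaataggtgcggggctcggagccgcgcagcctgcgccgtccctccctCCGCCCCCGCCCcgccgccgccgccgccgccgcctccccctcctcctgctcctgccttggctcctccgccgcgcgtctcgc
ATP1B3: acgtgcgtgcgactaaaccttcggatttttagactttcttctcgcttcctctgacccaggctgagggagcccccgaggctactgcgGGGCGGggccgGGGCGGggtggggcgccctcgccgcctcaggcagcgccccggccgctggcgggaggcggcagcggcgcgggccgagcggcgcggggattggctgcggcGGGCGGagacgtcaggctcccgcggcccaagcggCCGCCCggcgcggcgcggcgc
The ATP1B1 promoter is 77.6% GC with 35 CpG pairs, and the ATP1B3 promoter is 77.2% GC with 39 CpG pairs, against a median of 58% GC over 27305 RefSeq promoter windows of this length. The GC box occurs at 2 places in the ATP1B1 window, overlapping no other motif searched, and at 4 in the ATP1B3 window; 42.3% of all windows hold it. CCAAT occurs once in each (33.0% of windows), as does ACGTG (18.7%). GCGTG is found in the ATP1B3 window alone (31.9%). Neither holds AGAACA, a steroid receptor half-site (12.4%), or TATAAA (11.1%). These matches on both strands describe letters, not binding.

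ATP1B1 was the member that varied most. It stood at 1394 and 1384 RPKM beside CRPCCAFs with enzalutamide and at 560 and 533 RPKM beside CRPCCAFs with DMSO. Beside CCAFs it stood at 494 and 485 RPKM with enzalutamide and at 153 and 149 RPKM with DMSO. Cells alone had 202 and 204 RPKM with enzalutamide and 69.0 and 70.0 RPKM with DMSO. No 2 groups overlapped, and the 12 libraries fell into the order alone with DMSO, CCAF with DMSO, alone with enzalutamide, CCAF with enzalutamide, CRPCCAF with DMSO and CRPCCAF with enzalutamide, low to high. From 2807 to 59837 reads lay behind these values. The highest group mean was 20.0 times the lowest. Beside CRPCCAFs with enzalutamide ATP1B1 ranked 22 and 24 among all genes by RPKM, against 901 and 851 in cells alone with DMSO.

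**Figure D1:**
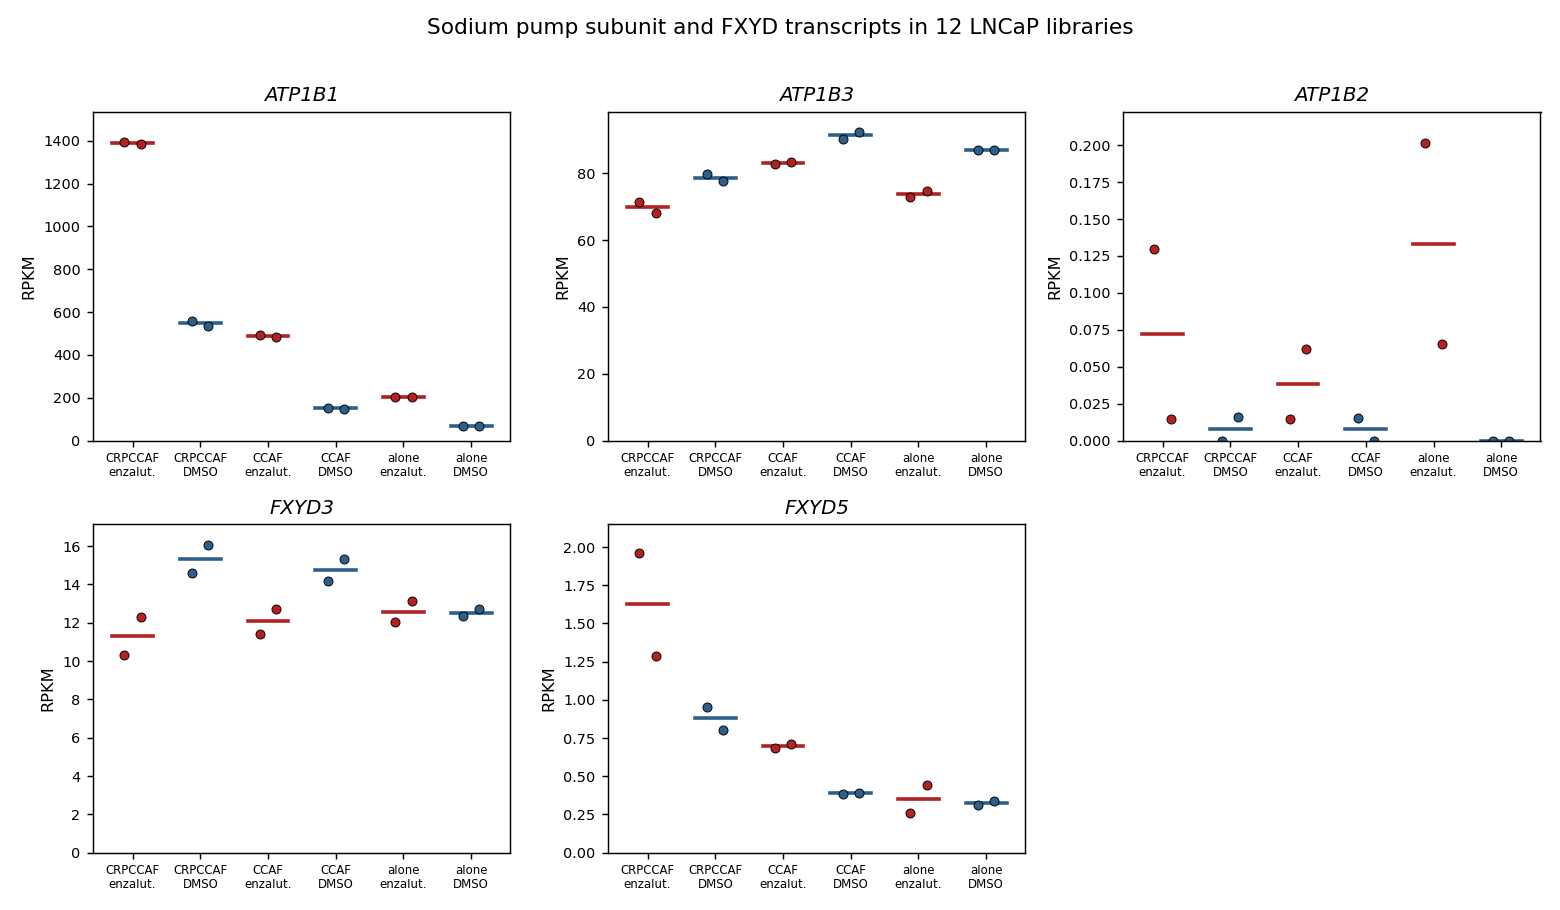
RPKM of the 5 genes in each library (points) with the group mean (line), red for enzalutamide and blue for DMSO, each axis starting at 0. ATP1B1 is highest at 1394 and 1384 RPKM beside CRPCCAFs with enzalutamide, ATP1B3 stays between 68.2 and 92.4 RPKM, and ATP1B2 stays below 1 RPKM.

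Enzalutamide went with more ATP1B1 in all 3 settings. The mean was 1389 ± 6.77 RPKM with enzalutamide and 547 ± 19.2 RPKM with DMSO beside CRPCCAFs (2.54-fold, log2 difference 1.34, SE 0.034). It was 489 ± 6.14 RPKM with enzalutamide and 151 ± 2.88 RPKM with DMSO beside CCAFs (3.24-fold, log2 1.69, SE 0.034). It was 203 ± 1.34 RPKM with enzalutamide and 69.5 ± 0.69 RPKM with DMSO in cells alone (2.92-fold, log2 1.53, SE 0.034). Log2 differences here and below are differences of log2(RPKM + 1) from one limma fit of all 12 libraries, so they understate the fold of low genes.

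Fibroblasts went with more ATP1B1 too, CRPCCAFs more than CCAFs. With enzalutamide the level was 6.85-fold that of cells alone beside CRPCCAFs (log2 2.77) and 2.41-fold beside CCAFs (log2 1.27). With DMSO it was 7.86-fold beside CRPCCAFs (log2 2.96) and 2.17-fold beside CCAFs (log2 1.11). CRPCCAFs exceeded CCAFs 2.84-fold with enzalutamide (log2 1.50) and 3.62-fold with DMSO (log2 1.85). These comparisons share groups, so they are not independent of one another.

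The drug's log2 difference for ATP1B1 lay from 1.34 to 1.69 over the 3 settings. Beside CRPCCAFs less in cells alone it differed by -0.19 (SE 0.047), a call that was lost when any 1 of 7 of the 8 libraries involved was left out, with values from -0.15 to -0.20. Beside CCAFs less in cells alone it differed by 0.16 (SE 0.047), not called. Beside CRPCCAFs less beside CCAFs it differed by -0.34 (SE 0.047), and that call was kept without any 1 library.

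ATP1B3, a beta subunit gene expressed in many tissues, stayed within a narrow range. Its RPKM was 71.3 and 68.2 beside CRPCCAFs with enzalutamide and 79.8 and 77.7 beside CRPCCAFs with DMSO. Beside CCAFs it was 82.8 and 83.4 with enzalutamide and 90.4 and 92.4 with DMSO. Cells alone had 72.9 and 74.6 with enzalutamide and 87.0 in both libraries with DMSO. The lowest group was thus CRPCCAF with enzalutamide and the highest CCAF with DMSO, 1.31-fold apart, and neighbouring groups in the order of levels did not overlap. From 2419 to 3642 reads lay behind each value.

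ATP1B3 went down where ATP1B1 went up with the drug, by much less. Enzalutamide went with a log2 difference of -0.17 beside CRPCCAFs, -0.14 beside CCAFs and -0.24 in cells alone (SE 0.033 each), which is 1.13-, 1.10- and 1.18-fold lower. CRPCCAFs went with less ATP1B3 than CCAFs did, by -0.25 with enzalutamide and -0.21 with DMSO. Against cells alone, CCAFs went with 0.17 more with enzalutamide and with 0.070 more, not called, with DMSO. For CRPCCAFs the difference from cells alone was -0.079, not called, with enzalutamide and -0.14 with DMSO. 2 of these calls rest on 1 library: without the second CCAF library with DMSO the drug's difference beside CCAFs was -0.12 and not called, and without the first library of cells alone with enzalutamide the CCAF difference was 0.15 and not called.

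ATP1B2, best known from glia, where its product is an adhesion molecule, was listed at 0.130 and 0.0147 RPKM beside CRPCCAFs with enzalutamide and at 0 and 0.0156 RPKM beside CRPCCAFs with DMSO. Beside CCAFs it was at 0.0143 and 0.0621 RPKM with enzalutamide and at 0.0150 and 0 RPKM with DMSO. Cells alone had 0.202 and 0.0651 RPKM with enzalutamide and 0 in both libraries with DMSO. These values come from 0 to 14 reads a library, 4 libraries had none, and neighbouring groups overlapped. A count of 0 allows up to 3 reads, by counting error only. ATP1B2 was under 1 RPKM in every library and was not tested.

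FXYD3, a FXYD protein first found in mouse mammary tumours and present in many epithelia, was the regulator gene with the higher level. Its RPKM was 10.3 and 12.3 beside CRPCCAFs with enzalutamide and 14.6 and 16.0 beside CRPCCAFs with DMSO. CCAF cocultures had 11.4 and 12.7 RPKM with enzalutamide and 14.2 and 15.3 RPKM with DMSO. Cells alone had 12.04 and 13.1 RPKM with enzalutamide and 12.3 and 12.7 RPKM with DMSO. The 2 coculture groups with DMSO were the highest and did not overlap the other 4 groups, which overlapped from each to the next in the order of means. The highest group mean was 1.35 times the lowest, with 429 to 692 reads behind a value.

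The drug went with less FXYD3 beside fibroblasts, by a log2 difference of -0.41 beside CRPCCAFs and -0.27 beside CCAFs (SE 0.088 each), and with 0.0046 in cells alone, which was not called. With DMSO, CRPCCAFs went with 0.27 more and CCAFs with 0.22 more, the second not called. With enzalutamide the differences from cells alone were -0.15 for CRPCCAFs and -0.057 for CCAFs, neither called. The drug's difference beside CRPCCAFs less that in cells alone was -0.41 (SE 0.12), not called, and it was called, at -0.53, without the second CRPCCAF library with enzalutamide. The called difference of the drug beside CCAFs was lost without the second CCAF library with DMSO (-0.22) or the first CCAF library with enzalutamide (-0.20). That of CRPCCAFs with DMSO was lost without either library of cells alone (0.25 and 0.29) or without the second CRPCCAF library (0.20).

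FXYD5, called dysadherin because its forced expression lowers cell adhesion, was close to the limit of this depth. It stood at 1.96 and 1.29 RPKM beside CRPCCAFs with enzalutamide (61 and 44 reads) and at 0.953 and 0.806 RPKM beside CRPCCAFs with DMSO (30 and 26 reads). Beside CCAFs it stood at 0.683 and 0.709 RPKM with enzalutamide (24 and 23 reads) and at 0.386 and 0.392 RPKM with DMSO (13 reads each). Cells alone had 0.257 and 0.440 RPKM with enzalutamide (9 and 17 reads) and 0.311 and 0.339 RPKM with DMSO (10 and 13 reads). The 3 lowest groups, both of cells alone and CCAF with DMSO, lay at 0.257 to 0.440 RPKM. CCAF with enzalutamide, CRPCCAF with DMSO and CRPCCAF with enzalutamide followed in that order without overlap, and the highest mean was 5.00 times the lowest.

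FXYD5 entered the fit only through the 2 CRPCCAF libraries with enzalutamide, the only ones at 1 RPKM or more, so that a difference of that group was built in. Its log2 difference was 0.95 (SE 0.15) for CRPCCAFs against cells alone with enzalutamide and 0.62 for CRPCCAFs against CCAFs with enzalutamide. With the drug it was 0.47 beside CRPCCAFs, 0.29 beside CCAFs and 0.022 in cells alone, the last pair not called. With DMSO, CRPCCAFs went with 0.50 more and CCAFs with 0.069 more than cells alone, the second not called. CRPCCAFs against CCAFs with DMSO gave 0.43, and CCAFs against cells alone with enzalutamide 0.33, neither called. Leaving out 1 library ended several calls. The drug's call beside CRPCCAFs was lost without the second CRPCCAF library with DMSO (0.41) or the first with enzalutamide (0.28). The call of CRPCCAFs against CCAFs was lost without the first CCAF (0.61) or the first CRPCCAF library (0.43) with enzalutamide. The call of CRPCCAFs with DMSO was lost without any 1 of its 4 libraries (0.45 to 0.56).

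**Figure D2:**
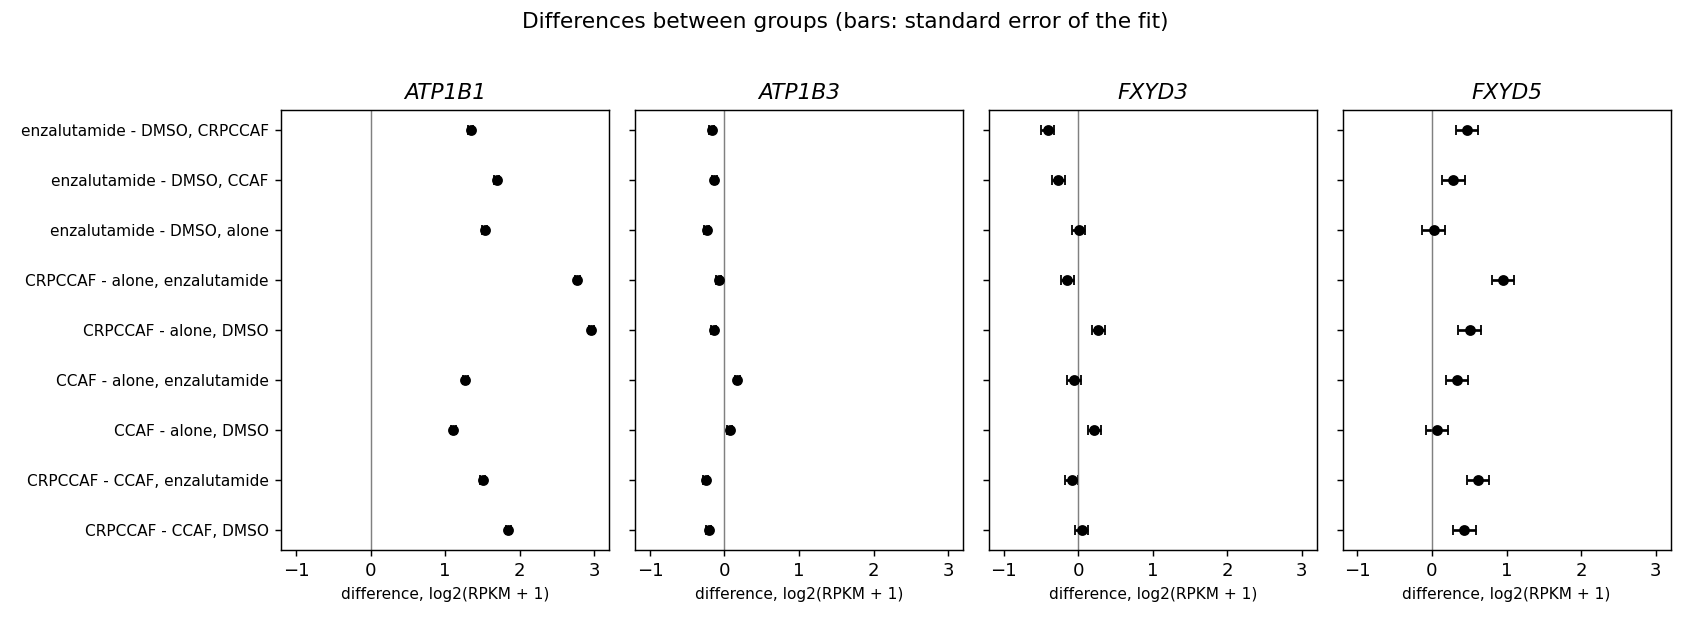
Log2 differences (points) and their standard errors (bars) of 4 members in 9 comparisons, each named as 1 group minus another. ATP1B1 lies from 1.11 to 2.96 throughout, ATP1B3 and FXYD3 lie within 0.41 of 0, and FXYD5 reaches 0.95.

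Of the 5 members, 4 passed the filter on low values, and their calls at an adjusted p under 0.05 are counted here beside those of all 16042 genes tested. For enzalutamide against DMSO, 2 members were higher and 2 lower beside CRPCCAFs, where 55.2% of all genes were called. Beside CCAFs 1 was higher and 2 lower, with 48.3% of all genes called. In cells alone 1 was higher and 1 lower, with 55.4% called. About as many genes were thus called for the drug as not, and the member counts say little. For CRPCCAFs against cells alone, 2 members were higher and 0 lower with enzalutamide (36.1% of all genes called), and 3 were higher and 1 lower with DMSO (30.6%). For CCAFs against cells alone, 2 were higher and 0 lower with enzalutamide (19.4%), and 1 was higher and 0 lower with DMSO (9.46%). For CRPCCAFs against CCAFs, 2 were higher and 1 lower with enzalutamide (32.4%), and 1 was higher and 1 lower with DMSO (13.4%). The drug's effect beside CRPCCAFs differed from that in cells alone for 1 member, ATP1B1, with a negative sign (7.01% of all genes called). It differed between CRPCCAFs and CCAFs for 1 member, again ATP1B1 with a negative sign (6.45%). Between CCAFs and cells alone it differed for 0 members (7.01%). The median log2 difference of the 4 members was 0.44 for CRPCCAFs with enzalutamide and 0.39 for CRPCCAFs with DMSO, where the medians over all genes were -0.029 and -0.020. FXYD5 is among the higher members for the drug beside CRPCCAFs. It is also among them for CRPCCAFs with enzalutamide against cells alone and against CCAFs. In these comparisons the filter built its difference in, and it also enters the median of 0.44. For that reason, and since the members were chosen on these libraries, nothing is read from these counts and medians.

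Of the other pump and FXYD genes listed here, ATP1A4, ATP1B4, FXYD1, FXYD2, FXYD4, FXYD6 and FXYD7, all 7 were under 1 RPKM in every library and 0 could be tested. Pseudogenes could take reads from the beta subunit genes. ATP1B1P1 was at 0.0228 to 0.233 RPKM and ATP1B3P1 at 0 to 0.105 RPKM, and their part in the values was not tested. Whether counting used the strand is not stated.

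RPKM is per length, so the beta subunit transcripts can be set against each other within a library. ATP1B1 over ATP1B3 was 19.55 and 20.3 beside CRPCCAFs with enzalutamide and 7.03 and 6.86 beside CRPCCAFs with DMSO. It was 5.96 and 5.82 beside CCAFs with enzalutamide and 1.70 and 1.61 beside CCAFs with DMSO. Cells alone had 2.77 and 2.73 with enzalutamide and 0.793 and 0.805 with DMSO. The ratio was over 1 in every group but cells alone with DMSO, and no groups overlapped. All beta subunit transcripts together came to 1465 and 1452 RPKM beside CRPCCAFs with enzalutamide, against 156 and 157 RPKM in cells alone with DMSO.

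The leading beta subunit changed with these conditions. ATP1B1 made up 95.1% and 95.3% of beta subunit RPKM beside CRPCCAFs with enzalutamide and 87.5% and 87.3% beside CRPCCAFs with DMSO. It made up 85.6% and 85.3% beside CCAFs with enzalutamide and 62.9% and 61.8% beside CCAFs with DMSO. In cells alone it made up 73.4% and 73.2% with enzalutamide and 44.2% and 44.6% with DMSO. Cells alone with DMSO were the only group in which ATP1B3 exceeded ATP1B1. In every setting the enzalutamide libraries lay above the DMSO libraries. These ratios use the same values as the levels above and add no independent test.

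**Figure D3:**
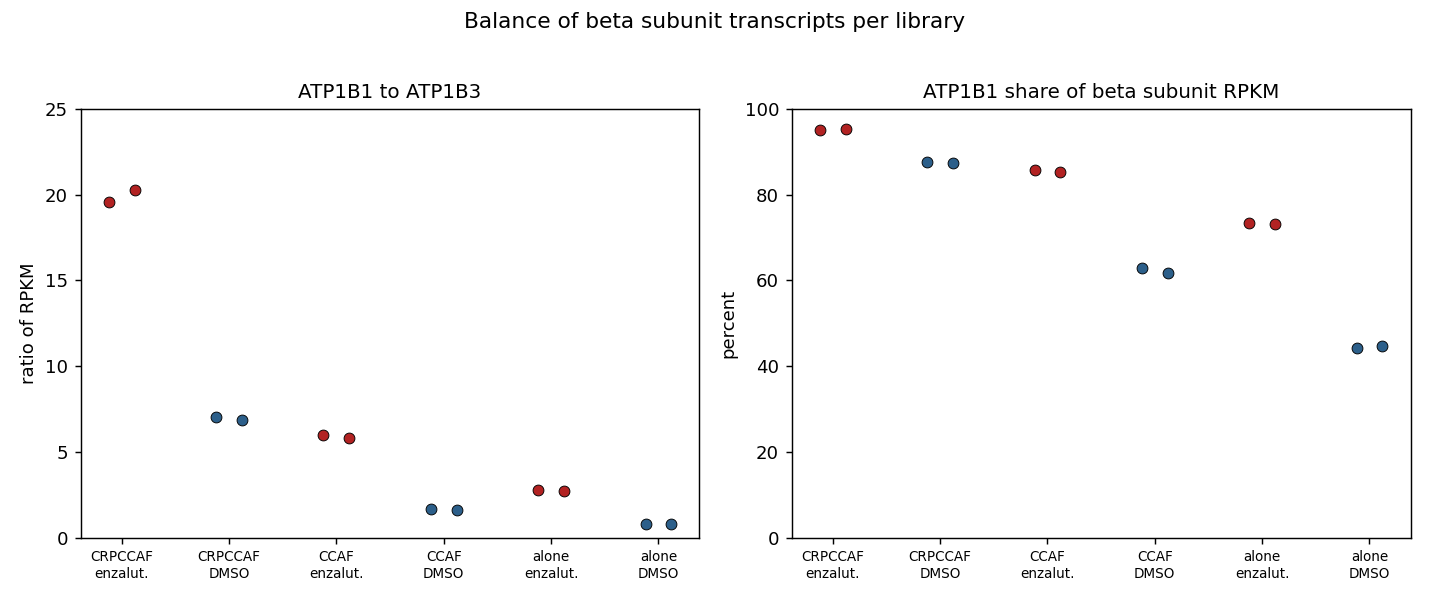
Ratio of ATP1B1 to ATP1B3 RPKM (left) and percent of beta subunit RPKM from ATP1B1 (right) in each library (points), red for enzalutamide and blue for DMSO. The ratio reaches 19.55 and 20.3 beside CRPCCAFs with enzalutamide and is 0.793 and 0.805 in cells alone with DMSO.

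Genes that act with the pump were taken from short lists, which were drawn up with earlier results of these data known. Of 4 NKAIN genes, whose products bind the pump's beta subunit, NKAIN1 was tested. It stood at 3.16 and 2.96 RPKM beside CRPCCAFs with enzalutamide and at 7.24 and 7.41 RPKM beside CRPCCAFs with DMSO. Beside CCAFs it stood at 0.677 and 0.825 RPKM with enzalutamide and at 2.10 and 2.12 RPKM with DMSO. Cells alone had 0.119 and 0.0154 RPKM with enzalutamide and 0.185 and 0.341 RPKM with DMSO. Like ATP1B1 it was highest beside CRPCCAFs, but unlike ATP1B1 it was lower with the drug beside both kinds of fibroblast. It passed the filter only through coculture libraries, so a difference from cells alone was built in and has no p here. Beside CRPCCAFs less cells alone it was 1.93 on the log2 scale with enzalutamide and 2.72 with DMSO (SE 0.10 each). Enzalutamide lowered it beside CRPCCAFs (log2 -1.04, limma adjusted p = 2.2e-05) and beside CCAFs (log2 -0.83, limma adjusted p = 0.00013). In cells alone the difference was -0.24 (limma adjusted p = 0.072), or 3.91-fold lower by mean RPKM, at 1 to 22 reads a library. Of the 3 genes of the related H,K-ATPase, ATP4B was tested, a beta subunit gene best known from the stomach. It averaged 1.02 ± 0.43 RPKM beside CRPCCAFs and 1.72 ± 0.055 RPKM in cells alone with enzalutamide (log2 -0.45, limma adjusted p = 0.037), a call lost without the first CRPCCAF library (-0.23) or either library of cells alone (-0.43 and -0.47). It passed in none of the other 11 comparisons.

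Genes for sodium entry supply the ion that the pump removes. Of 17 listed, 16 were tested. For the drug, 8 rose and 7 fell beside CRPCCAFs, 6 rose and 9 fell beside CCAFs and 5 rose and 7 fell in cells alone. For CRPCCAFs against cells alone, 6 rose and 6 fell with enzalutamide, and 6 rose and 5 fell with DMSO. For CCAFs against cells alone, 6 rose and 3 fell with enzalutamide, and 2 rose and 3 fell with DMSO. CRPCCAFs exceeded CCAFs for 5 and were lower for 3 with enzalutamide, and exceeded them for 3 and were lower for 2 with DMSO. Of all genes tested, 55.2%, 48.3% and 55.4% were called for the drug beside CRPCCAFs, beside CCAFs and in cells alone, and 9.46% to 36.1% in the 6 comparisons of fibroblasts. SCNN1B and SCNN1G passed the filter only through coculture libraries, and SLC5A1 only through the CRPCCAF libraries with enzalutamide (1.73 and 1.83 RPKM). For these genes a difference of those groups was built in, and they enter the counts and medians given here. Genes were called in both directions in each of these 9 comparisons. The list's median log2 difference lay between -0.20 and 0.078, where the median over all genes lay between -0.029 and 0.051.

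Among these genes SCNN1A, SCNN1B and SCNN1G, subunit genes of the epithelial sodium channel, had higher levels beside CRPCCAFs than in cells alone with enzalutamide and with DMSO, while SCNN1D differed by -0.18 with enzalutamide (limma adjusted p = 0.37) and by 0.090 with DMSO (limma adjusted p = 0.68). SCNN1G, its gamma subunit gene, stood at 8.48 and 8.62 RPKM beside CRPCCAFs with enzalutamide and at 9.25 and 8.84 RPKM beside CRPCCAFs with DMSO. CCAF cocultures had 1.98 and 2.10 RPKM with enzalutamide and 2.57 and 2.64 RPKM with DMSO. Cells alone had 0.313 and 0.270 RPKM with enzalutamide and 0.340 and 0.259 RPKM with DMSO. Its libraries thus fell into 3 levels by fibroblast kind, with small differences by drug. SCNN1G passed the filter only through coculture libraries, so a difference from cells alone was built in and is given without a p. Beside CRPCCAFs less cells alone it was 2.89 on the log2 scale with enzalutamide and 2.95 with DMSO. The drug's difference was -0.072 beside CRPCCAFs (limma adjusted p = 0.43), -0.25 beside CCAFs (limma adjusted p = 0.020) and -0.0086 in cells alone (limma adjusted p = 0.93).

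SCNN1B, the beta subunit gene of that channel, was higher both with the drug and beside CRPCCAFs. It stood at 5.64 and 5.82 RPKM beside CRPCCAFs with enzalutamide and at 1.83 and 2.18 RPKM with DMSO. Beside CCAFs it stood at 1.68 and 1.28 RPKM with enzalutamide and at 0.517 and 0.263 RPKM with DMSO, and in cells alone at 0.172 and 0.225 RPKM with enzalutamide and at 0.0625 and 0.105 RPKM with DMSO. The drug raised it beside CRPCCAFs (log2 1.17, SE 0.13, limma adjusted p = 5.1e-05) and beside CCAFs (log2 0.84, limma adjusted p = 0.00059), and its difference in cells alone was 0.15 (limma adjusted p = 0.38). By mean RPKM it was 2.86-fold higher with the drug beside CRPCCAFs, 3.79-fold beside CCAFs and 2.38-fold in cells alone. Behind the last lay 9 and 13 reads with enzalutamide and 3 and 6 reads with DMSO. SCNN1B, too, passed the filter through coculture libraries alone, and its differences of CRPCCAFs from cells alone, 2.49 with enzalutamide and 1.47 with DMSO on the log2 scale, are given without a p. SCNN1A, the alpha subunit gene, was the abundant one at 38.3 ± 1.52 RPKM with enzalutamide and 29.2 ± 0.58 RPKM with DMSO beside CRPCCAFs (log2 0.38, limma adjusted p = 2.4e-05), and at 34.8 ± 0.13 RPKM with enzalutamide and 24.4 ± 0.45 RPKM with DMSO in cells alone (log2 0.50, limma adjusted p = 3.6e-06).

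**Figure D4:**
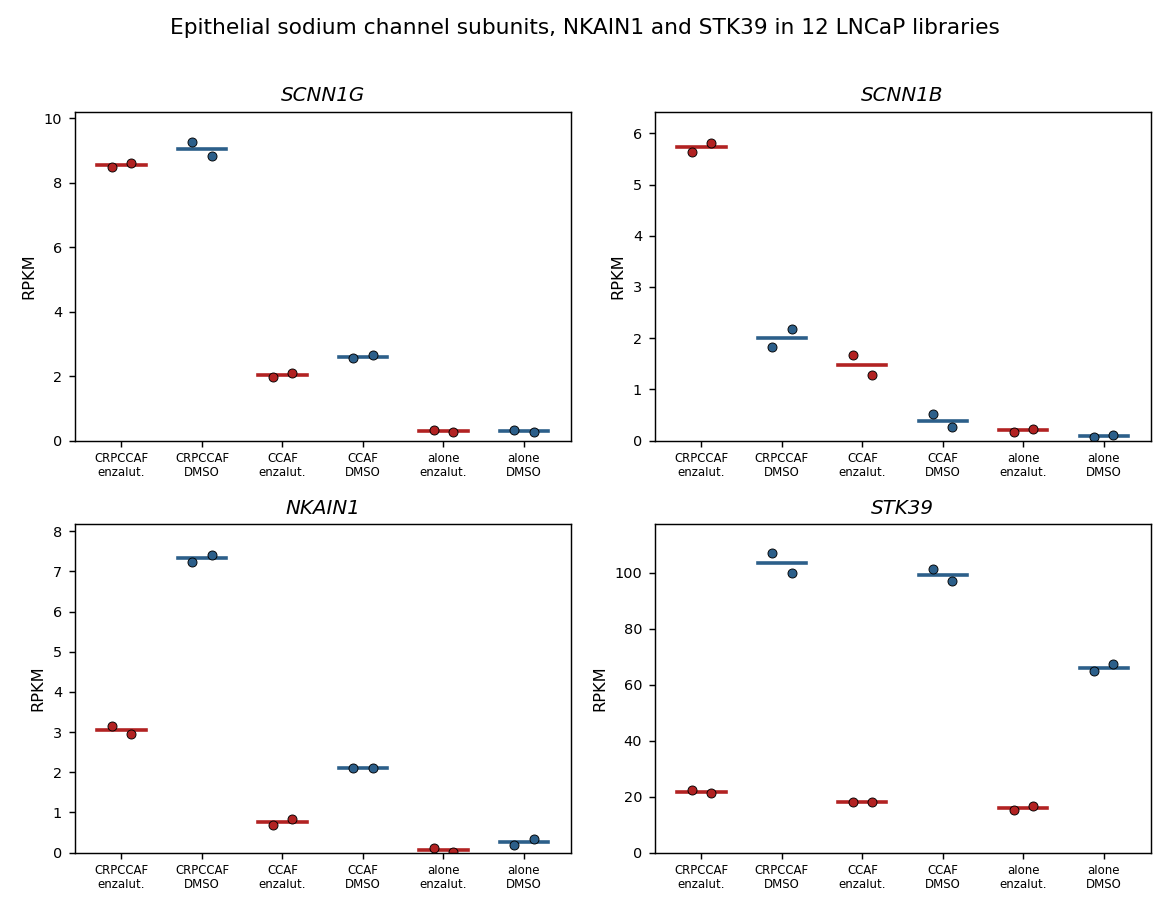
RPKM of SCNN1G, SCNN1B, NKAIN1 and STK39 in each library (points) with the group mean (line), red for enzalutamide and blue for DMSO, each axis starting at 0. SCNN1G is above 8 RPKM in all 4 CRPCCAF libraries, and STK39 is below 23 RPKM in all 6 enzalutamide libraries.

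Transporters that use the sodium gradient went different ways. SLC20A1, a sodium-phosphate cotransporter, averaged 44.5 ± 0.42 RPKM with enzalutamide and 26.8 ± 1.01 RPKM with DMSO beside CRPCCAFs (log2 0.71, SE 0.049, limma adjusted p = 1.9e-06). In cells alone it averaged 18.7 ± 0.0011 RPKM with enzalutamide and 23.1 ± 1.05 RPKM with DMSO (log2 -0.29, limma adjusted p = 0.00074). The drug's effect thus had opposite signs, and it differed by 1.00 between these settings (SE 0.070, limma adjusted p = 6.1e-05). SLC1A5, a glutamine carrier, was lower with the drug in all 3 settings and lower with fibroblasts. It averaged 17.8 ± 0.65 RPKM beside CRPCCAFs with enzalutamide, against 28.4 ± 0.97 RPKM in cells alone with enzalutamide (log2 -0.65, SE 0.041, limma adjusted p = 2.5e-06), and 27.3 ± 0.61 RPKM beside CRPCCAFs with DMSO, against 42.9 ± 1.02 RPKM in cells alone with DMSO (log2 -0.63, limma adjusted p = 4.5e-06). SLC9A2, a sodium-hydrogen exchanger, averaged 4.26 ± 0.028 RPKM with enzalutamide and 7.82 ± 0.45 RPKM with DMSO beside CRPCCAFs (log2 -0.74, SE 0.054, limma adjusted p = 2.7e-06).

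Of 10 kinases and ubiquitin ligases that govern sodium transport, 7 were tested. For the drug, 2 rose and 2 fell beside CRPCCAFs, 1 rose and 4 fell beside CCAFs and 2 rose and 1 fell in cells alone. For CRPCCAFs against cells alone, 2 rose and 3 fell with enzalutamide, and 4 rose and 2 fell with DMSO. For CCAFs against cells alone, 1 rose and 1 fell with enzalutamide, and 4 rose and 1 fell with DMSO. CRPCCAFs against CCAFs gave 1 higher and 0 lower with enzalutamide, and 0 higher and 1 lower with DMSO. The counts for the drug stand beside 55.2%, 48.3% and 55.4% of all genes called, and those for fibroblasts beside 9.46% to 36.1%, so with 7 genes nothing is read from them. STK39, a kinase that activates sodium-coupled chloride cotransporters, was the list's gene with the largest drug difference in all 3 settings. It stood at 22.3 and 21.2 RPKM beside CRPCCAFs with enzalutamide and at 107 and 99.95 RPKM with DMSO (log2 -2.20, SE 0.052, limma adjusted p = 1.8e-09). In cells alone it stood at 15.3 and 16.6 RPKM with enzalutamide and at 64.9 and 67.4 RPKM with DMSO (log2 -1.99, limma adjusted p = 3.3e-09). It fell with the drug, unlike ATP1B1. NEDD4L, a ligase that removes the epithelial sodium channel from the membrane, averaged 21.9 ± 0.88 RPKM with enzalutamide and 30.8 ± 1.97 RPKM with DMSO beside CRPCCAFs (log2 -0.48, SE 0.056, limma adjusted p = 7.0e-05). In cells alone its difference with the drug was 0.045 (limma adjusted p = 0.52). SGK3, a kinase of the family that restrains NEDD4L, averaged 2.71 ± 0.23 RPKM beside CRPCCAFs and 4.95 ± 0.32 RPKM in cells alone with enzalutamide (log2 -0.68, SE 0.10, limma adjusted p = 0.00065). SGK1 was below the filter.

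The ATP1B1 product and FXYD5 also bear on cell adhesion, and 12 of 13 listed adhesion genes were tested. For the drug, 8 rose and 2 fell beside CRPCCAFs, 8 rose and 3 fell beside CCAFs and 9 rose and 2 fell in cells alone. For CRPCCAFs against cells alone, 8 rose and 1 fell with enzalutamide, and 8 rose and 2 fell with DMSO. For CCAFs against cells alone, 3 rose and 1 fell with enzalutamide, and 4 rose and 1 fell with DMSO. CRPCCAFs against CCAFs gave 8 higher and 1 lower with enzalutamide, and 5 higher and 1 lower with DMSO. Over all genes tested, 30.5% rose and 24.7% fell with the drug beside CRPCCAFs, 26.8% rose and 21.5% fell beside CCAFs, and 30.1% rose and 25.3% fell in cells alone. For CRPCCAFs against cells alone 16.5% of all genes rose and 19.6% fell with enzalutamide, and 14.3% rose and 16.3% fell with DMSO. For CRPCCAFs against CCAFs with enzalutamide 13.9% were higher and 18.5% lower. In each of these 6 comparisons 8 or 9 of the 12 listed genes rose. For CCAFs against cells alone 11.9% of all genes rose and 7.5% fell with enzalutamide, and 5.5% rose and 4.0% fell with DMSO. For CRPCCAFs against CCAFs with DMSO 7.0% were higher and 6.4% lower. Since the list was drawn up with results known, nothing particular to it is read from these counts. The list's median log2 difference for the drug was 0.34 beside CRPCCAFs, 0.32 beside CCAFs and 0.35 in cells alone, where the medians over all genes were 0.051, 0.046 and 0.042.

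OCLN, the tight junction protein occludin, was the adhesion gene that rose most with the drug. It averaged 30.7 ± 0.83 RPKM with enzalutamide and 7.86 ± 0.69 RPKM with DMSO beside CRPCCAFs (log2 1.84, SE 0.059, limma adjusted p = 1.1e-08). In cells alone it averaged 31.4 ± 0.024 RPKM with enzalutamide and 9.53 ± 0.39 RPKM with DMSO (log2 1.62, limma adjusted p = 2.2e-08). Against cells alone, CRPCCAFs went with a difference of -0.031 with enzalutamide (limma adjusted p = 0.72) and lowered it with DMSO (log2 -0.25, limma adjusted p = 0.010). CLDN4, a claudin of tight junctions, averaged 279 ± 4.11 RPKM beside CRPCCAFs and 131 ± 0.47 RPKM in cells alone with enzalutamide (log2 1.09, SE 0.056, limma adjusted p = 5.8e-07), and 186 ± 17.6 RPKM beside CRPCCAFs and 112 ± 1.47 RPKM in cells alone with DMSO (log2 0.72, limma adjusted p = 1.7e-05). DSP, the desmosome protein desmoplakin, averaged 79.4 ± 2.03 RPKM beside CRPCCAFs and 41.1 ± 0.98 RPKM in cells alone with enzalutamide (log2 0.93, SE 0.048, limma adjusted p = 5.7e-07). CDH1, E-cadherin, averaged 181 ± 1.86 RPKM with enzalutamide and 148 ± 3.50 RPKM with DMSO beside CRPCCAFs (log2 0.29, SE 0.031, limma adjusted p = 3.6e-05). TJP1, which anchors tight junctions inside the cell, went the other way, at 16.8 ± 0.33 RPKM with enzalutamide and 27.8 ± 2.08 RPKM with DMSO beside CRPCCAFs (log2 -0.69, SE 0.054, limma adjusted p = 4.3e-06).

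The genes whose pattern was most like that of each member were sought by Pearson correlation of log2(RPKM + 1) over the 12 libraries, among 1797 genes whose group means spanned at least 1 on that scale. The points share 6 groups and their libraries, so these are descriptions. For ATP1B1 they were TNFRSF12A, a receptor of the TNF family (r = 0.993), and STON1, an endocytosis adaptor (0.992). TNFRSF12A averaged 62.2 RPKM beside CRPCCAFs with enzalutamide and 9.16 RPKM in cells alone with DMSO. STON1 averaged 7.39 RPKM beside CRPCCAFs with enzalutamide and 2.51 RPKM in cells alone with DMSO. For ATP1B3 they were NABP1 (0.973), SLC35B4 (0.944) and CDC7 (0.942), for FXYD3 PHGR1 (0.870), MAF (0.868) and CCDC152 (0.867), and for FXYD5 SLC4A9 (0.969), NFKBIZ (0.966) and SCN4B (0.965). NFKBIZ, an inhibitor protein of the NF-kB family, averaged 27.2 RPKM beside CRPCCAFs with enzalutamide and 0.653 RPKM in cells alone with DMSO. Among the members, ATP1B1 went with FXYD5 (0.905) and against ATP1B3 (-0.699). FXYD3 and ATP1B3 spanned 0.41 and 0.38 themselves and FXYD5 spanned 0.99, each less than 1. Likeness to them is thus likeness of small differences on that scale. FXYD5 also rests on 9 to 61 reads a library.

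Mouse cancer-associated fibroblasts of the same series, isolated from mice labelled PtenPC-/-; Trp53PC-/- and cultured without LNCaP cells, were read for the orthologs, in TPM and without a test. Atp1b1 stood at 6.07 and 5.48 TPM with 1 µM enzalutamide and 5 ng/ml TGF-beta1 together, at 79.8 and 81.5 TPM with TGF-beta1, at 104 and 103 TPM with enzalutamide and at 211 and 203 TPM with DMSO. It was thus lower in these fibroblasts with enzalutamide, where LNCaP ATP1B1 was higher. Fibroblasts from mice labelled ADT, untreated at day 0, had 4.59 and 5.53 TPM. Fxyd5 stood at 76.2 and 70.0 TPM with both agents, at 179 TPM in each library with TGF-beta1, at 83.4 and 87.1 TPM with enzalutamide and at 53.5 and 58.1 TPM with DMSO. ADT fibroblasts had 83.5 and 79.4 TPM of it. Fxyd5 was thus lowest in the DMSO libraries and highest with TGF-beta1. The lower total of the DMSO libraries was 986203 TPM, less than a full TPM column sums to, and the reason was not tested. Atp1b2 stood at 2.03 and 2.26 TPM with both agents (65 and 64 reads) and at 0.525 and 0.524 TPM with TGF-beta1. It stood at 0.392 and 0.451 TPM with enzalutamide and at 0.258 and 0.373 TPM with DMSO (7 and 9 reads). ADT fibroblasts had 1.31 and 1.64 TPM of it. Atp1b3 ran from 72.8 to 96.5 TPM. Fxyd3 was listed at 0 in 9 of the 10 libraries. RPKM and TPM come from separate tables and are not compared as levels.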

How the data were processed

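RNA of 12 LNCaP libraries was described, and mouse fibroblast libraries were read for orthologs; the 2 labelled sox4 were not used here. The authors deposited RPKM for LNCaP and TPM for the fibroblasts, per the file headers. The labels' protocols name Trizol extraction, the NEBNext Ultra kit and a HiSeq instrument. HISAT2, HTSeq, DESeq2, hg19 and mm10 appear in the submitters' processing notes with no role or version.

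From the LNCaP table, 27 names that were calendar dates were removed from 44591. Whole reads were solved from the RPKM steps for 25005 genes, 100% of whose values were whole within 0.05 reads, covering at least 99.9% of each total. No count test was run on them. Genes at 1 RPKM or more in at least 2 libraries (16042) were fitted once in limma 3.58.1 (R 4.3.3) on log2(RPKM + 1), with a mean-variance trend, 6 group means, no block and 6 residual degrees of freedom. P-values are two-sided, adjusted by Benjamini-Hochberg over all genes within each of 12 comparisons, and called under 0.05. The fit was tested on simulated data.

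The members, lists and comparisons were chosen with earlier results of these data known. Besides the members, most list genes whose differences are given follow a rule. They are among the up to 4 of their list with the smallest adjusted p in a comparison, with groups apart and a mean of 1 RPKM or more. CDH1 and SCNN1D are given outside this rule. KLK3 checks the drug, and a gene so named also has its values in other comparisons. The up to 3 genes most alike each member follow the rule given with them. Some genes that these rules name are not reported here. Alternatives were a pseudocount of 0.1, no filter, median-of-ratios scaling, a replicate block and each library left out. Promoter sequences are RefSeq's (GRCh38.p14), found for 5 of 5 members; the LNCaP table gives no positions.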

Additional observations from a re-analysis of the deposited data

Results flagged for a closer look

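The results listed here are differences between the effects of enzalutamide in 2 settings that passed the limma interaction test (adjusted p under 0.05), on the log2(RPKM + 1) scale. ATP1B1 is among them as a description, since it was chosen on these libraries.

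Between CRPCCAF coculture and cells alone, the drug's effect differed by -0.19 for ATP1B1, -0.52 for NEDD4L and -0.80 for NKAIN1, and by 0.37 for CLDN4, 1.02 for SCNN1B and 1.00 for SLC20A1. NEDD4L and SLC20A1 kept these calls without any 1 library. By mean RPKM the drug lowered NKAIN1 2.40-fold beside CRPCCAFs and 3.91-fold in cells alone, so by fold it fell less beside CRPCCAFs. SCNN1B was 2.86-fold higher with the drug beside CRPCCAFs and 2.38-fold higher in cells alone. SCNN1B and NKAIN1 were under 1 RPKM in every library of cells alone, where the log2(RPKM + 1) scale understates folds. Their calls were lost without the second CRPCCAF library with enzalutamide, at 1.00 and -0.76. That of CLDN4 was lost without 6 of the 8 libraries involved, at 0.36 to 0.39, and that of ATP1B1 without 7, at -0.15 to -0.20.

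Between CCAF coculture and cells alone, it differed by -0.33 for DSP, -0.42 for NEDD4L, -0.59 for NKAIN1 and -0.39 for STK39, and by 0.35 for SLC4A4. NKAIN1 was under 1 RPKM in every library of cells alone and passed the filter only through coculture libraries. By mean RPKM the drug lowered it 2.81-fold beside CCAFs and 3.91-fold in cells alone, so by fold it fell less beside CCAFs. Each of the 5 calls was lost without some of the 8 libraries involved. NEDD4L lost it without the first library of cells alone with enzalutamide (-0.41) or the second CCAF library with DMSO (-0.40), and STK39 without the first DMSO library of cells alone (-0.37) or of the CCAF group (-0.36). DSP and SLC4A4 lost it without 7 of the 8 libraries, at -0.30 to -0.34 and 0.28 to 0.39, and NKAIN1 without 7, at -0.50 to -0.66.

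Between CRPCCAF and CCAF coculture, it differed by -0.34 for ATP1B1 and -0.33 for SLC5A6, and by 0.25 for CTNNA1 and 0.91 for SLC20A1. ATP1B1 and SLC20A1 kept these calls without any 1 library. CTNNA1 lost it without the first CCAF library with DMSO (0.23) or the second with enzalutamide (0.24), and SLC5A6 without 7 of the 8 libraries, at -0.26 to -0.36.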

How the results depend on the processing

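ATP1B1 kept its direction and its call in all 9 comparisons of groups under all alternatives run. Over the 12 comparisons and all alternatives, the 4 tested members gave 392 values with the same direction and call. Of their other values, 27 lost a call, 3 gained one and 10 changed sign. The list genes named by the rule gave 885 values with the same direction and call and 127 that lost a call. The sign changes were in differences that were not called of FXYD3 and FXYD5.

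With median-of-ratios scaling, FXYD3 with the drug in cells alone became -0.0375, against 0.0046. Scaling moved the median of all genes by -0.043 at most. With the replicate number as a block, 2 members in place of 1 were called for CCAFs with DMSO, FXYD3 being added. Over all genes, libraries of 1 number did not deviate together (correlations of -0.062 to 0.084 over 15 pairs of groups). This cannot exclude that the numbers pair samples, and the labels do not say. FXYD3 itself was higher in the second library of every group. With no filter, 0 members in place of 1 differed in the drug's effect between CRPCCAFs and cells alone.

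Leaving out 1 library, the members called ranged from 1 to 3 for the drug beside CCAFs, from 2 to 3 for CRPCCAFs with DMSO, from 1 to 2 for CCAFs with enzalutamide and from 0 to 1 for the drug's effect between CRPCCAFs and cells alone. All genes called ranged from 640 to 824 (1518 with all libraries) for CCAFs with DMSO, from 1672 to 1951 (3107) for CCAFs with enzalutamide and from 821 to 1962 (2156) for CRPCCAFs against CCAFs with DMSO. For differences of the drug's effect they ranged from 623 to 813 (1125) between CCAFs and cells alone, from 580 to 1121 (1125) between CRPCCAFs and cells alone and from 580 to 1367 (1034) between CRPCCAFs and CCAFs. FXYD3 ranged from -0.053 to 0.063 for the drug in cells alone, from -0.13 to 0.017 for CCAFs with enzalutamide, and for CRPCCAFs against CCAFs from -0.21 to 0.027 with enzalutamide and from -0.014 to 0.11 with DMSO. FXYD5 ranged from -0.075 to 0.12 for the drug in cells alone and from -0.0028 to 0.37 for the drug's effect between CRPCCAFs and CCAFs. These fits have fewer samples, and the cause was not tested further. Depth limits ATP1B2 and FXYD5, at 0 to 14 and 9 to 61 reads a library.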
